A study of Capra hircus with 11 samples.

Results

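The genes of interest were the receptors and transducers through which prolactin and oestrogen act on the mammary gland: PRLR, ESR1, STAT5A and STAT5B. They were chosen by symbol, and 3 of the 4 were found among the 16678 gene entries of the 5 tables examined. PRLR (gene20411 in the tables) had an entry in 2 tables, ESR1 (gene10037) in 4 and STAT5B (gene19639) in 5. STAT5A matched no symbol in the tables and no symbol or synonym in the RefSeq annotation of the goat assembly ARS1.2. It was not analysed here, and a missing symbol does not show that the gene was not captured.

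PRLR is the cell surface receptor for prolactin, the pituitary hormone that drives alveolar development and milk secretion. Binding of prolactin to PRLR activates the kinase JAK2 bound to it, which phosphorylates STAT5A and STAT5B, closely related transcription factors that then enter the nucleus and switch on milk protein genes and their own feedback inhibitors such as CISH and SOCS2. ESR1 encodes oestrogen receptor alpha, a nuclear receptor of the sensor cells of the mammary ducts, which answer oestrogen by releasing growth factors such as AREG to their neighbours.

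RNA of single goat (Capra hircus) cells was captured in droplets with version 2 of the 10x Genomics 3′ kit and sequenced. Ear fibroblasts were grown in fibroblast medium and examined at day 0 (BFRTV0d), then kept in an induction medium named BFRTV, in which they were examined after 4 days (BFRTV4d) and 8 days (BFRTV8d). CiMECs were day-8 cells that had been passaged further in a medium for goat mammary epithelial cells, so they differ from BFRTV8d in both passage and medium. GMECs were mammary epithelial cells derived naturally from goats. All groups were cultured cells, and the tables describe cells in culture and not a lactating gland. The labels give 3, 3, 2, 1 and 2 samples to BFRTV0d, BFRTV4d, BFRTV8d, CiMECs and GMECs, but the deposited files give every group as 1 pooled table whose barcodes carry no sample. Each group was therefore 1 library with no replicate, no significance test was made, and all differences are differences between these libraries.

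The tables hold 10670, 10203, 10152, 5188 and 5641 barcodes in the order given above, with median depths of 10070, 9665, 9089, 17232 and 19424 UMIs (unique molecular identifiers, each counted as 1 captured transcript). Ribosomal protein genes take 25.6% of the UMIs in CiMECs and 35.0% in GMECs but have no entry in the BFRTV tables, so levels are given as CPM, the UMIs of a gene per 1000000 UMIs outside ribosomal protein genes. These 2 tables also hold barcodes down to 500 UMIs, against a lowest depth of 1951 in the BFRTV tables, so table format and cell group cannot be told apart between the sets. No listed gene was found in fewer than 11 cells of a BFRTV table or 6 cells of the other tables. A member with no entry was therefore set at that number of counts, which gives between 0.0830 and 0.106 CPM. Folds against it are given as lower bounds. They hold only if the gene was left out for being in too few cells and held no more UMIs than that number. The missing ribosomal protein genes show that genes could also be left out in other ways. Pairs of tables shared between 37 and 147 cell barcodes. Ranges in parentheses are exact 95% intervals and cover counting error only. Genes with at least 2 CPM in 1 of a pair of tables were compared, and a gene at least 2-fold apart was called higher or lower.

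Cells with at least 2000 UMIs were clustered within each table without using the members, and clusters were named from fibroblast and epithelial markers. Fibroblast-like clusters held 44.5% of the cells at BFRTV4d, against 92.3% at BFRTV0d, and no cluster of another table took that name. Epithelial-like clusters held 7.66% of the cells at BFRTV0d, 46.0% at BFRTV4d, 94.9% at BFRTV8d, 71.1% in CiMECs and all 4876 clustered cells of GMECs. The BFRTV0d table was thus not purely fibroblast-like, and the values of the members in its 817 epithelial-like cells are given apart from the rest. The remaining cells, 9.51% at BFRTV4d, 5.09% at BFRTV8d and 28.9% in CiMECs, stayed without a name. Reasons were that both kinds of marker were present, that collagen or contractile genes led the cluster, or that its cells were shallow. The largest CiMECs cluster, 24.7% of the clustered cells, was unnamed because the contractile gene TAGLN was among its leading genes. Its summed markers were 22393 CPM epithelial and 5.74 CPM fibroblast, so the 71.1% in CiMECs depends on this rule. The ratio of marker sums that set a name was chosen after the clusters had been seen. The summed level of the fibroblast markers was 14498, 4621, 684.9, 20.5 and 5.24 CPM in BFRTV0d, BFRTV4d, BFRTV8d, CiMECs and GMECs, and that of the epithelial markers was 1724, 6660, 13758, 19173 and 29638 CPM. Summed immune markers lay between 28.7 and 69.8 CPM and endothelial markers between 0.596 and 3.01 CPM, with no entry for their defining genes PTPRC and CDH5.

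PRLR had an entry only in the tables of induced cells. It had no entry at BFRTV0d, 678 UMIs or 6.35 CPM (5.88 to 6.85) at BFRTV4d, and 1294 UMIs or 12.5 CPM (11.8 to 13.2) at BFRTV8d. It had no entry in CiMECs or GMECs either. The receptor transcript was thus listed neither in the starting cells nor in natural mammary epithelial cells. PRLR lay above 40.6% of the genes listed at BFRTV4d and above 53.5% of those listed at BFRTV8d, and it was spread thinly over many cells. At BFRTV8d 1067 cells had a UMI of PRLR, of which 891 had 1 UMI, 141 had 2 and 35 had 3 or more. At BFRTV4d 581 cells had one, of which 505 had 1 UMI, 62 had 2 and 14 had 3 or more. The highest count in any cell was 6 UMIs at BFRTV8d and 8 at BFRTV4d. The tables hold 1 entry for the gene, so receptor forms that differ in their intracellular part cannot be told apart.

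**Figure D1:**
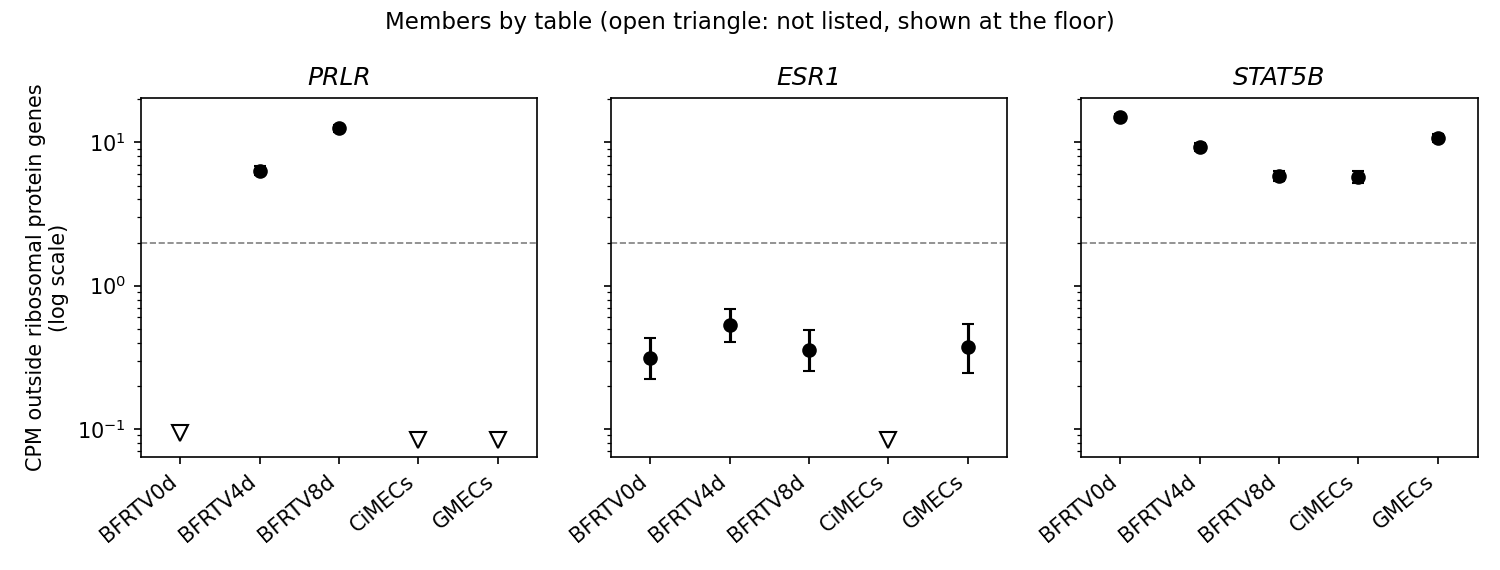
Level of PRLR, ESR1 and STAT5B in each table in CPM outside ribosomal protein genes on a log axis, with exact 95% Poisson intervals as bars, open triangles at the floor where a table does not list the gene and a dashed line at the 2 CPM needed for a comparison. PRLR stands at 6.35 and 12.5 CPM at day 4 and day 8 and at the floor elsewhere, while STAT5B lies between 5.75 and 15 CPM in all 5 tables.

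STAT5B showed the opposite order during induction. It had 1757 UMIs at BFRTV0d, 987 at BFRTV4d and 601 at BFRTV8d, which gave 15 CPM (14.3 to 15.7), 9.25 CPM (8.68 to 9.84) and 5.82 CPM (5.36 to 6.30). CiMECs held 416 UMIs, or 5.75 CPM (5.21 to 6.33), and GMECs held 774 UMIs, or 10.7 CPM (9.98 to 11.5). In CPM outside ribosomal protein genes STAT5B was highest at BFRTV0d, followed by GMECs, BFRTV4d, BFRTV8d and CiMECs, and the intervals of neighbours in this order did not overlap except for BFRTV8d and CiMECs. The place of GMECs and CiMECs depends on the scaling, since in CPM of all UMIs GMECs stood at 6.97 CPM, below BFRTV4d, and CiMECs at 4.28 CPM, and under median-of-ratios scaling GMECs and BFRTV0d were level (log2 fold 0.00). STAT5B lay above 53.6%, 48.4%, 38.3%, 47.7% and 52.4% of the genes listed in BFRTV0d, BFRTV4d, BFRTV8d, CiMECs and GMECs, which places it near the middle of each table.

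ESR1 was close to the limit of detection in every table. It had 37 UMIs at BFRTV0d, 57 at BFRTV4d and 37 at BFRTV8d, which gave 0.315 CPM (0.222 to 0.434), 0.534 CPM (0.404 to 0.692) and 0.358 CPM (0.252 to 0.494). GMECs held 27 UMIs, or 0.374 CPM (0.247 to 0.544), and CiMECs had no entry. No cell held more than 2 UMIs of ESR1, and the intervals of BFRTV0d, BFRTV4d, BFRTV8d and GMECs overlapped. Genes that epithelial cells and fibroblasts are not known for were counted at similar or higher numbers: the endothelial gene VWF had 129, 245, 275, 58 and 36 UMIs and the B cell gene CD79A had 142, 400, 172, 200 and 33 UMIs in the 5 tables. PGR, the progesterone receptor and a classical target of oestrogen receptor alpha, had 21 UMIs at BFRTV0d, 19 at BFRTV4d and 33 at BFRTV8d, and no entry in CiMECs or GMECs. ESR1 never reached 2 CPM and therefore entered no comparison.

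The first 4 days of induction are covered by BFRTV4d against BFRTV0d. PRLR was at least 67.8-fold higher at BFRTV4d. It was the 1 member called higher among the 2 that were compared, against 17.2% of the 12255 genes compared that were called higher and 22.9% called lower. STAT5B was 1.62-fold lower (1.5 to 1.75) and was not called. The ESR1 ratio was 1.70 (1.10 to 2.64) on 57 and 37 UMIs. Over all compared genes the median log2 fold was −0.27, and 42.9% of the calls were higher. TMM scaling moved that share to 53.3% and added 0.21 to every log2 fold, which left STAT5B at −0.49.

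At BFRTV8d against BFRTV0d, PRLR was at least 133.8-fold higher and STAT5B was 2.57-fold lower (2.34 to 2.83). PRLR was therefore called higher and STAT5B called lower, against 22.1% of the 12414 compared genes called higher and 26.9% called lower. The STAT5B log2 fold of −1.36 lay below the median of −0.21 over all compared genes, and it was −1.19 under TMM scaling. The ESR1 ratio was 1.14 (0.701 to 1.84).

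Within the second part of the induction, BFRTV8d against BFRTV4d, PRLR was 1.97-fold higher (1.80 to 2.17) and STAT5B was 1.59-fold lower (1.43 to 1.76). Neither was called, against 10.6% of the 12188 compared genes called higher and 9.37% called lower. These 3 comparisons share tables, so their values are set side by side and are not independent of each other.

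In CiMECs against BFRTV8d, PRLR was at least 150.9-fold lower and was the 1 member called, against 45.1% of the 11918 compared genes called lower and 9.16% called higher. A call of lower was thus common in this comparison, whose median log2 fold over all genes was −0.85. The size of the PRLR difference does not hang on that shift, since the bound on the log2 scale was −7.24 as scaled here, −6.49 under TMM and −6.44 under median-of-ratios scaling. The STAT5B ratio was 0.989 (0.871 to 1.12), with a log2 fold of −0.02 here, −0.44 in CPM of all UMIs and 0.73 under TMM scaling, so that its direction depends on the scaling. The share of calls that were higher was 16.9% here, 44.3% under TMM and 46.7% under median-of-ratios scaling.

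In CiMECs against GMECs, which asks how the passaged induced cells differ from natural mammary epithelial cells, PRLR and ESR1 offered no comparison. STAT5B was 1.86-fold lower in CiMECs (1.65 to 2.10) and was not called, against 26.9% of the 10946 compared genes called lower and 6.60% called higher. Its log2 fold was −0.90 here and −0.46 under TMM scaling, beside a median of −0.53 over all genes. The share of calls that were higher was 19.7% here, 49.5% under TMM, 53.6% under median-of-ratios scaling and 30.4% in CPM of all UMIs.

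In GMECs against BFRTV0d, STAT5B was 1.39-fold lower (1.28 to 1.52) and was not called, against 32.5% of the 11966 compared genes called lower and 13.4% called higher. Its log2 fold of −0.48 became −0.03 under TMM, 0.00 under median-of-ratios scaling and −1.10 in CPM of all UMIs. The size of the STAT5B difference between natural mammary cells and fibroblasts therefore depends on the scaling, from a lower level in GMECs to none. The share of calls that were higher was 29.1% here, 47.9% under TMM, 49.3% under median-of-ratios scaling and 12.6% in CPM of all UMIs. The ESR1 ratio was 1.19 (0.696 to 2.00).

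PRLR followed the epithelial-like cells. At BFRTV4d, where both classes were present in near equal numbers and at near equal depth, epithelial-like cells held 573 of the 678 UMIs of PRLR (84.5%) and fibroblast-like cells held 12 (1.77%). This gave 12.0 CPM (11.1 to 13.1) in epithelial-like cells and 0.269 CPM (0.139 to 0.470) in fibroblast-like cells, a 44.7-fold difference (25.4 to 87.1). A UMI of PRLR was found in 10.4% of the epithelial-like cells (median depth 9423 UMIs) and in 0.265% of the fibroblast-like cells (median depth 9333 UMIs), so the share in epithelial-like cells lay far above that in the other class of the same table. The unnamed cells, at a median depth of 14936 UMIs, held the other 93 UMIs, or 6.38 CPM. At BFRTV8d epithelial-like cells held 97.8% of the PRLR UMIs, at 13.2 CPM (12.4 to 13.9), and 10.8% of them had a UMI.

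Within epithelial-like cells the PRLR level at BFRTV8d was 1.09 times that at BFRTV4d (0.990 to 1.21), while the share of such cells in the table was 94.9% at BFRTV8d, against 46.0% at BFRTV4d. The 1.97-fold difference between the whole tables was thus not seen within the class. In epithelial-like cells of the other tables PRLR was set at the floor of its table. PRLR was at least 17.1-fold higher in the epithelial-like cells of BFRTV4d, and at least 18.7-fold higher in those of BFRTV8d, than in those of BFRTV0d. Against the epithelial-like cells of CiMECs and GMECs, those of BFRTV8d were at least 102.1-fold and at least 157.2-fold higher. The 817 epithelial-like cells of BFRTV0d give the weakest of these bounds, because they hold the fewest UMIs.

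**Figure D2:**
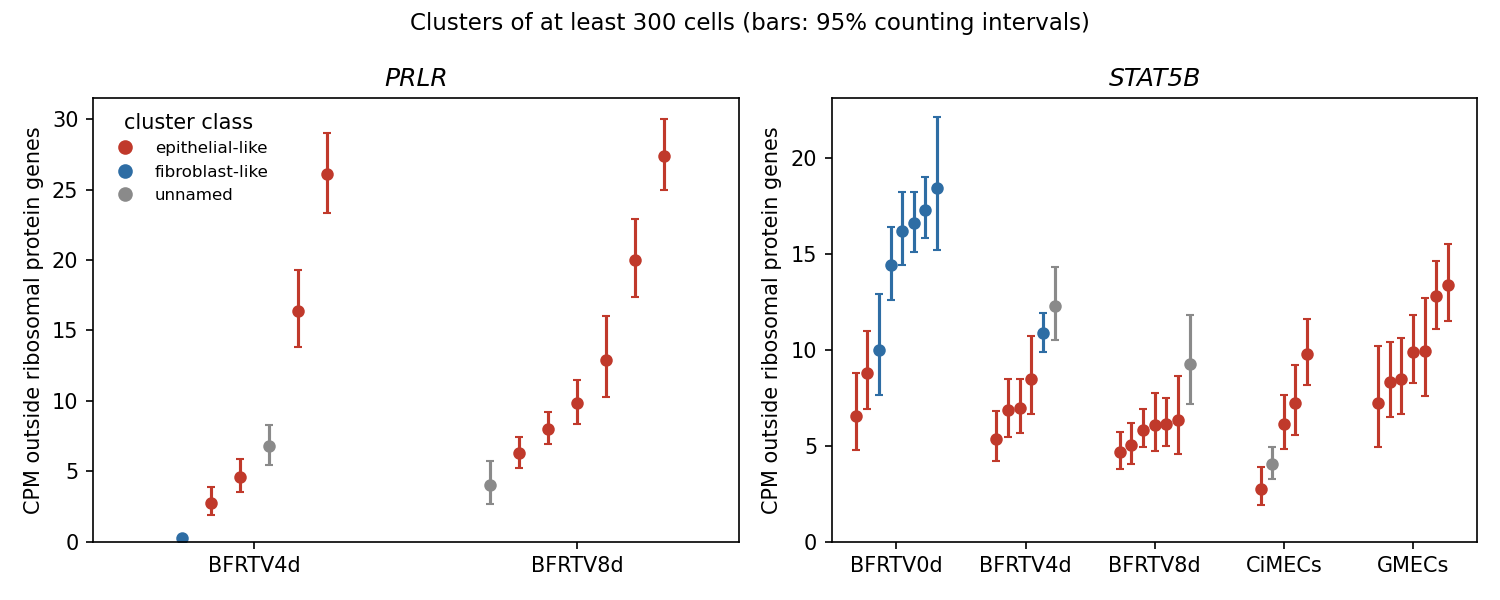
Level of PRLR and STAT5B in CPM in each cluster of at least 300 cells, 1 point per cluster in rising order within its table, coloured by class, with exact 95% Poisson intervals as bars. PRLR reaches 26.1 and 27.4 CPM in 1 epithelial-like cluster of day 4 and of day 8, and at day 0 the epithelial-like clusters have 6.58 and 8.77 CPM of STAT5B, below the 10.0 to 18.4 CPM of the fibroblast-like clusters.

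The epithelial-like cells were not uniform in PRLR. The genes that lead the clusters are named here to identify them and were picked after their values had been seen. At BFRTV4d the highest level, 26.1 CPM (23.3 to 29.0), was found in a cluster of 1546 cells led by CXCL14, a secreted chemokine of epithelia, together with GJB6 and STMN2. In this cluster 18.2% of the cells had a UMI of PRLR. A mitotic cluster of 757 cells led by UBE2C and CDC20 followed with 16.4 CPM (13.8 to 19.3). PRLR was lower in the cluster of 1367 cells led by AGR2 and TFF3, genes of mucus-secreting epithelia, at 4.60 CPM (3.54 to 5.87), and in a cycling cluster of 1027 cells led by MKI67 and RRM2, at 2.77 CPM (1.92 to 3.88). The intervals of these 4 clusters did not overlap except for those of the last pair.

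At BFRTV8d the highest PRLR level was again in a cluster led by STMN2 and CXCL14. It held 1671 cells, with 484 UMIs of PRLR, 27.4 CPM (25.0 to 30) and a UMI in 23.6% of its cells. A cluster of 1001 cells led by MMP7, TFF3, LTF and AGR2 followed with 20.0 CPM (17.4 to 22.9). The cluster with AGR2 and TFF3 thus stood second at day 8, while its counterpart at day 4 had 4.60 CPM. The other named clusters lay lower. PRLR was at 12.9 CPM in cycling cells, 9.83 CPM in cells led by KRT6A and FABP5, 8.02 CPM in the largest cluster, led by HPN and SOSTDC1, and 6.30 CPM in cells led by KRT19, KRT18 and CLDN7. The unnamed collagen-led cells had 4.01 CPM. The cells led by KRT19 and KRT18 thus had the lowest value of the named cells at day 8. Their interval (5.27 to 7.47) overlapped that of the HPN cluster (6.92 to 9.24). Another keratin, KRT8, stood at 483.8 CPM in these cells and 490.2 CPM in the PRLR-highest cluster.

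A cluster led by STMN2 and CXCL14 was also present at BFRTV0d, with 466 cells, and PRLR was not listed there. Its counterparts had at least 20.8-fold more PRLR at BFRTV4d and at least 21.9-fold more at BFRTV8d.

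ELF5, CSN3 and LTF, which STAT5 is known to drive in milk-producing cells, were not highest in the same clusters as PRLR, whereas SOCS2, another such gene, was highest in the PRLR-highest cluster at BFRTV4d, at 188.9 CPM. At BFRTV8d SOCS2 stood at 254.9 CPM in the PRLR-highest cluster and 343.5 CPM in the HPN cluster. ELF5, a luminal transcription factor that acts downstream of the prolactin receptor in the mouse, stood at 5.83 CPM in the PRLR-highest cluster of BFRTV8d, against 77.5 CPM in the MMP7 and TFF3 cluster, 59.4 CPM in the KRT19 cluster and 39.0 CPM in the HPN cluster. CSN3, which encodes kappa-casein and is the casein gene with an entry here, stood at 2.10 CPM in the PRLR-highest cluster, against 26.6, 31.4 and 12.6 CPM in those 3 clusters. LTF, which encodes the milk protein lactoferrin, stood at 3.06 CPM in the PRLR-highest cluster and 168.6 CPM in the MMP7 and TFF3 cluster. At BFRTV4d ELF5 stood at 0.702 CPM in the PRLR-highest cluster and 17.1 CPM in the AGR2 and TFF3 cluster. In the MMP7 and TFF3 cluster of BFRTV8d all 4 of PRLR, ELF5, CSN3 and LTF stood above their level in the whole table, which was 12.5, 38.9, 14.5 and 30.7 CPM.

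**Figure D3:**
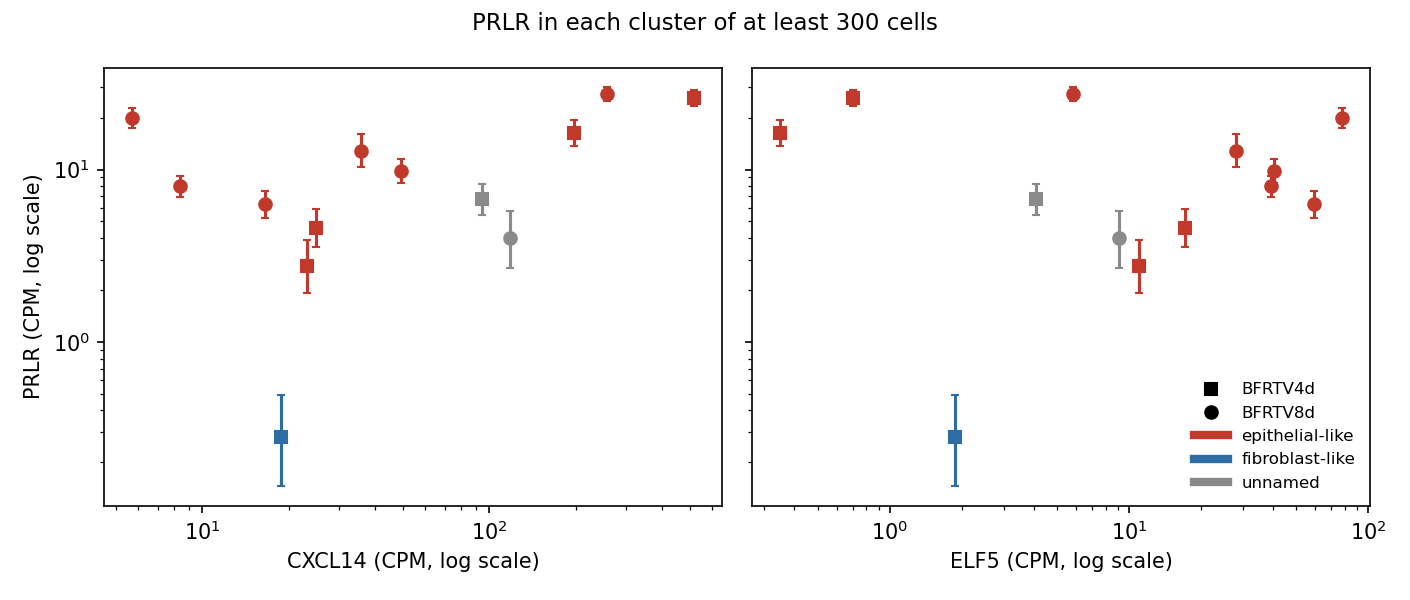
Level of PRLR against that of CXCL14 (left) and ELF5 (right) in CPM on log axes, 1 point per cluster of at least 300 cells of BFRTV4d (squares) and BFRTV8d (circles), coloured by class, with exact 95% Poisson intervals of PRLR as bars. The clusters with the highest PRLR, 26.1 and 27.4 CPM, have 0.702 and 5.83 CPM of ELF5, whereas the MMP7 and TFF3 cluster of day 8 has 20.0 CPM of PRLR and 77.5 CPM of ELF5.

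Cells with and without a PRLR transcript were also compared directly. At BFRTV8d the 1040 epithelial-like cells with a UMI of PRLR (median depth 10044 UMIs) were set beside the 8595 without one (median depth 8826 UMIs). CXCL14 was 3.61-fold higher (3.42 to 3.81), TFF3 3.11-fold higher (2.98 to 3.23), STMN2 2.36-fold higher (2.21 to 2.51) and LTF 1.97-fold higher (1.81 to 2.15) in the cells with PRLR. The ratio was 0.741 (0.618 to 0.882) for CSN3, 0.814 (0.733 to 0.903) for ELF5 and 0.774 (0.603 to 0.980) for CISH, a feedback inhibitor that STAT5 induces. Other genes that STAT5 is known to induce went the other way or differed little, with a ratio of 1.32 (1.27 to 1.38) for ID2 and 0.914 (0.879 to 0.949) for SOCS2. Known STAT5 targets thus did not move one way between cells with and without a captured PRLR transcript. LTF, which was low in the PRLR-highest cluster, was among the higher ones, and PRLR was also high in the LTF-rich MMP7 and TFF3 cluster. At BFRTV4d the 487 epithelial-like cells with PRLR stood beside 4210 without it, with a ratio of 2.26 (2.15 to 2.38) for CXCL14, 2.18 (1.63 to 2.88) for WNT4, a secreted signal, 1.57 (1.45 to 1.70) for ID2, 1.18 (1.09 to 1.27) for SOCS2 and 0.435 (0.255 to 0.698) for ELF5. Most cells without a UMI of PRLR cannot be taken as lacking the transcript at this depth. These are cells of 1 library each, and the ratios describe that library.

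In CPM, STAT5B was higher in fibroblast-like than in epithelial-like cells where both classes were present. At BFRTV0d it was 2.05-fold lower (1.71 to 2.49) in epithelial-like cells, at 7.81 CPM (6.49 to 9.33), than in fibroblast-like cells, at 16.0 CPM (15.3 to 16.8). At BFRTV4d it was 1.62-fold lower (1.40 to 1.87) in epithelial-like cells, at 6.79 CPM (6.07 to 7.57), than in fibroblast-like cells, at 11 CPM (10.0 to 12.0). STAT5B and PRLR thus lay on opposite sides of the class border at day 4.

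Within each class STAT5B was also lower at the later time. In fibroblast-like cells it was 1.46-fold lower (1.32 to 1.62) at BFRTV4d than at BFRTV0d. In epithelial-like cells it was 1.41-fold lower (1.15 to 1.71) at BFRTV8d than at BFRTV0d and 1.22-fold lower (1.06 to 1.41) at BFRTV8d than at BFRTV4d. The 1.15-fold lower level at BFRTV4d than at BFRTV0d (0.927 to 1.42) lay within counting error. The 2.57-fold difference between the whole tables of day 8 and day 0 was therefore larger than the difference within epithelial-like cells, and the share of fibroblast-like cells, 92.3% at BFRTV0d, moved with it.

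Among the epithelial-like cells, those of GMECs had the highest STAT5B level in CPM outside ribosomal protein genes. It was 1.64-fold lower (1.43 to 1.88) in epithelial-like CiMECs, at 6.51 CPM, than in GMECs, at 10.7 CPM. Epithelial-like CiMECs were 1.17 times the level of BFRTV8d (1.01 to 1.35), and GMECs 1.37 times the level of the epithelial-like cells of BFRTV0d (1.13 to 1.67), in the CPM used here. In CPM of all UMIs, which counts the ribosomal protein genes that only these 2 tables list, epithelial-like CiMECs had 4.76 and GMECs 6.94 CPM. The epithelial-like cells of BFRTV8d had 5.56 CPM and those of BFRTV0d 7.81 CPM. The order against the BFRTV tables thus depends on this choice, while CiMECs stayed below GMECs. The ratio of 1.17 also depends on which CiMECs are named. The unnamed CiMECs had 4.29 CPM of STAT5B outside ribosomal protein genes (3.52 to 5.17). Their largest cluster, 1116 cells with mostly epithelial markers, had 4.05 CPM (3.28 to 4.95).

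The spread between clusters of at least 300 cells was of the same order as these differences. At BFRTV0d STAT5B ranged between 6.58 and 8.77 CPM over the epithelial-like clusters and between 10.0 and 18.4 CPM over the fibroblast-like clusters, so the cluster values did not overlap between the classes. In epithelial-like clusters it ranged between 5.38 and 8.49 CPM at BFRTV4d, between 4.69 and 6.36 CPM at BFRTV8d, between 2.77 and 9.77 CPM in CiMECs and between 7.23 and 13.4 CPM in GMECs. The lowest STAT5B level in CiMECs was in cells led by ANKRD1, a gene induced by mechanical load, and the highest in cells led by DMKN and DKK1. In GMECs the highest level was in cells led by CITED2 and PIGR, the receptor that carries antibodies into milk. The unnamed cluster of that size had 9.26 CPM of STAT5B at BFRTV8d and 12.3 CPM at BFRTV4d, and collagen genes were among its markers at both times.

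In the ARS1.2 annotation STAT5B is followed by LOC102185866, a protein-coding gene without a name there, and then by STAT3. This neighbour had 1492, 605, 572, 422 and 912 UMIs in BFRTV0d, BFRTV4d, BFRTV8d, CiMECs and GMECs. It was 2.24-fold lower at BFRTV4d and 2.29-fold lower at BFRTV8d than at BFRTV0d, and 2.16-fold lower in CiMECs than in GMECs. Whether this neighbour corresponds to STAT5A, which matched no symbol or synonym, was not tested. Whether reads were shared between STAT5B and a near-identical copy could not be checked.

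Fibroblast-like cells held 40 of the 57 UMIs of ESR1 (70.2%) at BFRTV4d and 36 of 37 (97.3%) at BFRTV0d, where they made up 92.3% of the cells. The BFRTV0d levels were 0.353 CPM (0.247 to 0.489) in fibroblast-like cells and 0.0640 CPM (0.00162 to 0.357) in epithelial-like cells, on 1 UMI, and their intervals overlapped. At BFRTV4d ESR1 stood at 0.897 CPM in fibroblast-like cells and at 0.147 CPM in epithelial-like cells, on 7 UMIs, a 6.10-fold higher level in fibroblast-like cells (2.70 to 16.1). Fibroblast-like cells of BFRTV4d were 2.54-fold above those of BFRTV0d (1.58 to 4.10). At BFRTV8d 34 of the 37 UMIs lay in epithelial-like cells, which were 2.41-fold above those of BFRTV4d (1.05 to 6.43). Each of these ratios has at most 40 molecules on either side, and VWF and CD79A, genes of other lineages, had similar or higher counts in the same tables.

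To compare shares of cells at equal depth, each barcode was thinned to 3000 UMIs, which left out 0, 45, 8, 837 and 889 shallower cells of BFRTV0d, BFRTV4d, BFRTV8d, CiMECs and GMECs. PRLR was then found in 3.86% of the cells of BFRTV8d (3.50 to 4.26) and 1.96% of those of BFRTV4d (1.70 to 2.25), against 10.5% and 5.69% without thinning. STAT5B was found in 4.26%, 2.78%, 1.79%, 1.31% and 2.19% of the cells in the 5 tables, against 14.9%, 9.02%, 5.71%, 7.31% and 12.3% without thinning. STAT5B was thus found in fewer cells at each later time of the induction at equal depth too, and the thinned depth of CiMECs and GMECs includes their ribosomal protein UMIs. ESR1 was found in at most 0.150% of the thinned cells of any table.

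PRLR and STAT5B were seldom captured in the same cell. At BFRTV8d 1.55% of the thinned epithelial-like cells with PRLR had a UMI of STAT5B (6 of 386 cells, 0.573 to 3.35), against 1.71% of those without PRLR (1.46 to 2.00). At BFRTV4d the shares were 4.44% (8 of 180 cells, 1.94 to 8.57) and 2.18% (1.78 to 2.66). The intervals overlapped at both times. Without thinning, the shares with STAT5B were 5.67% (4.35 to 7.26) in cells with PRLR and 5.33% (4.86 to 5.82) in cells without it at BFRTV8d, and 7.80% (5.58 to 10.6) and 6.37% (5.65 to 7.15) at BFRTV4d. A difference in STAT5B between cells with and without PRLR was therefore not detectable at this depth.

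The other genes of the pathway were described from lists of their roles. Of 18 further hormone and growth factor receptors, 4 of the 10 compared were called higher and 0 lower at BFRTV4d against BFRTV0d, and 5 of 11 were called higher and 2 lower at BFRTV8d against BFRTV0d. Over all genes 17.2% were called higher and 22.9% lower in the first of these comparisons, and 22.1% higher and 26.9% lower in the other. The median log2 folds were 0.46 and 0.96, beside −0.27 and −0.21 over all genes. The mineralocorticoid receptor NR3C2 was ordered like PRLR, at 0.136 CPM at BFRTV0d, 1.00 CPM at BFRTV4d and 6.59 CPM at BFRTV8d. ERBB3, which binds neuregulins, stood at 0.749, 6.81 and 21.2 CPM at the 3 times, and IGF1R, the receptor of insulin-like growth factor, at 72.1, 332.3 and 365.2 CPM. Within epithelial-like cells at BFRTV8d against BFRTV0d, ERBB3 was 4.24-fold higher (3.40 to 5.35), against 28.3-fold in the whole tables, and IGF1R 4.03-fold higher (3.82 to 4.25). The vitamin D receptor VDR was highest at day 4, with 7.09, 73.2 and 43.4 CPM. GHR, the growth hormone receptor that also signals through JAK2 and STAT5, stood at 2.76, 4.07 and 0.997 CPM, and NR3C1, the glucocorticoid receptor that acts with STAT5 on milk protein genes, at 56.0, 40.4 and 34.1 CPM. Fibroblast-like cells held 77.6% of the GHR UMIs at BFRTV4d, and NR3C1 within epithelial-like cells was 1.01 times as high at BFRTV8d as at BFRTV0d (0.920 to 1.12).

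As with PRLR, most of these receptors were lower in CiMECs than in BFRTV8d: 8 of 11 were called lower and 1 higher, against 45.1% and 9.16% of all genes, with a median log2 fold of −2.42 beside −0.85 over all genes. TMM scaling adds 0.74 to these values, which leaves the median of the receptors below 0. NR3C2 was at least 79.4-fold lower, INSR, the insulin receptor, 31.2-fold lower (22.9 to 43.6) and IGF1R 20.4-fold lower (19.3 to 21.5). In CiMECs against GMECs, 1 of 8 was called higher and 3 lower, against 6.60% and 26.9% of all genes. IGF1R was 27.0-fold higher (20.2 to 36.8) in CiMECs, while INSR was 10.4-fold lower (7.54 to 14.7). In GMECs against BFRTV0d, 3 of 10 receptors were called higher and 5 lower, against 13.4% and 32.5% of all genes, with OXTR, the oxytocin receptor of milk ejection, at least 43.7-fold higher.

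Among ligands of mammary development, 5 of 7 were called higher and 1 lower at BFRTV4d against BFRTV0d, and 6 of 7 were called higher and 1 lower at BFRTV8d against BFRTV0d. The shares over all genes were those given for the receptors. IGF1 was highest at day 4, with 0.426, 113.6 and 8.82 CPM at day 0, day 4 and day 8, and epithelial-like cells held 1.34% of its UMIs at BFRTV4d. AREG, the growth factor through which oestrogen receptor cells act on their neighbours, had 21.1, 43.9 and 319.7 CPM. Within epithelial-like cells AREG was 1.84-fold lower (1.75 to 1.94) at BFRTV4d than at BFRTV0d, opposite to the whole tables, and 2.18-fold higher (2.10 to 2.28) at BFRTV8d than at BFRTV0d. WNT4, which acts downstream of the progesterone receptor, had 0.298, 3.74 and 3.24 CPM. LIF, the cytokine that activates STAT3 at weaning, was the 1 called lower, with 199.0, 28.4 and 15.3 CPM. Of these ligands, 5 of 7 were called lower and 0 higher in CiMECs against BFRTV8d, against 45.1% and 9.16% of all genes. The genes for prolactin, growth hormone and placental lactogen (PRL, GH1 and CSH2) had no entry and were not analysed here.

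JAK2, the kinase bound to PRLR, was ordered like STAT5B over the induction. It had 34.3 CPM at BFRTV0d, 21.8 CPM at BFRTV4d and 13.3 CPM at BFRTV8d. The level was 2.58-fold lower (2.43 to 2.75) at BFRTV8d than at BFRTV0d. JAK2 was the 1 of 3 Janus kinases called there (33.3%), near the 26.9% of all genes called lower. Within epithelial-like cells JAK2 was 1.60-fold lower (1.41 to 1.82) at BFRTV8d than at BFRTV0d, while the level at BFRTV8d was 1.05 times that at BFRTV4d (0.948 to 1.16). CiMECs had 10.1 CPM of JAK2 and GMECs had 20.0 CPM, a 1.99-fold lower level (1.81 to 2.17) in CiMECs. Of the other STAT genes, STAT3, the transducer of involution signals, was 2.25-fold higher (2.15 to 2.36) at BFRTV8d than at BFRTV0d, and STAT6, the transducer of interleukin 4, was 2.29-fold lower (2.04 to 2.57). STAT5B and STAT6 were therefore called lower at day 8 and STAT3 called higher. Of the 4 other STAT genes compared there, 2 were called higher and 1 lower, against 22.1% and 26.9% of all genes. Within epithelial-like cells the same differences were 1.47-fold higher (1.35 to 1.61) for STAT3 and 1.32-fold lower (1.02 to 1.68) for STAT6. STAT2 and STAT3 were among the 3 of 4 other STAT genes called lower in CiMECs against BFRTV8d, against 45.1% of all genes.

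Feedback inhibitors of JAK and STAT signalling did not move together. At BFRTV4d against BFRTV0d 0 of 15 were called higher and 3 lower, against 17.2% and 22.9% of all genes, with a median log2 fold of −0.69 beside −0.27 over all genes. SOCS3 was 5.90-fold lower (5.56 to 6.26), SOCS2 3.68-fold lower (3.60 to 3.77) and SOCS1 2.62-fold lower (2.43 to 2.82). Within epithelial-like cells SOCS3 and SOCS1 were lower too, 2.71-fold (2.40 to 3.07) and 9.11-fold (7.18 to 11.6), but SOCS2 was 1.58-fold higher (1.49 to 1.68) at BFRTV4d than at BFRTV0d. At BFRTV8d against BFRTV4d 2 of 16 were called higher, CISH at 2.92-fold (2.55 to 3.36) and SOCS2 at 2.74-fold (2.68 to 2.81), and 0 lower, against 10.6% and 9.37% of all genes. The 12.5% called higher was near the 10.6% of all genes. In epithelial-like cells without a UMI of PRLR, CISH stood at 5.19 CPM at BFRTV4d and 8.41 CPM at BFRTV8d, and SOCS2 at 133.0 and 270.5 CPM. In those with a UMI of PRLR the levels were 4.36 and 6.51 CPM for CISH, and 156.8 and 247.1 CPM for SOCS2. SOCS2 stood at 255.6 CPM at BFRTV8d and 343.1 CPM at BFRTV0d in the whole tables, where fibroblast-like cells held 96.7% of its day 0 UMIs. Within epithelial-like cells SOCS2 was 3.12-fold higher (2.96 to 3.30) at BFRTV8d than at BFRTV0d, at 267.6 CPM against 85.7 CPM. CISH ran the other way, 3.19-fold higher (2.79 to 3.67) at BFRTV8d than at BFRTV0d in the whole tables but 1.77-fold lower (1.52 to 2.05) within epithelial-like cells, which held 79.0% of its UMIs at BFRTV0d. In CiMECs against BFRTV8d 9 of 16 (56.2%) were called lower and 0 higher, near the 45.1% of all genes called lower, with SOCS2 22.8-fold lower (21.3 to 24.5). In CiMECs against GMECs 5 of 15 (33.3%) were called lower and 0 higher, near the 26.9% of all genes.

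**Figure D4:**
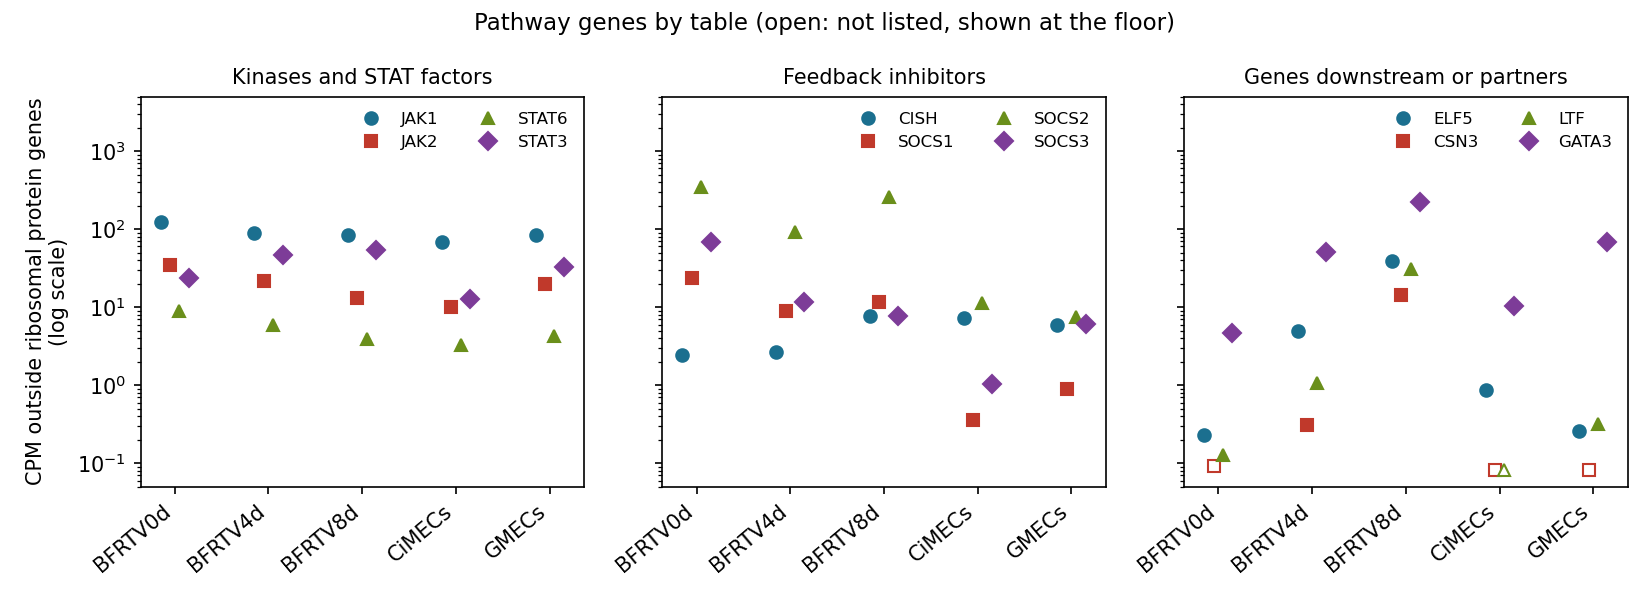
Level of 12 pathway genes in each table in CPM outside ribosomal protein genes on a log axis, in panels of kinases and STAT factors, feedback inhibitors, and downstream or partner genes, with open markers at the floor where a table does not list the gene. ELF5, CSN3 and LTF are highest at day 8, at 38.9, 14.5 and 30.7 CPM, whereas JAK2 is highest at day 0, at 34.3 CPM.

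Of 24 genes known as targets of STAT5 in the mammary gland, 15 had an entry in a table. At BFRTV4d against BFRTV0d 3 of 12 were called higher and 4 lower, against 17.2% and 22.9% of all genes. At BFRTV8d against BFRTV0d 8 of 15 were called higher and 3 lower, against 22.1% and 26.9% of all genes, with a median log2 fold of 1.08 beside −0.21. At BFRTV8d against BFRTV4d 7 of 15 were called higher and 1 lower, against 10.6% and 9.37% of all genes. LTF was 240.6-fold higher (145.7 to 430.4), ELF5 169.4-fold higher (116.3 to 257.4) and CSN3 at least 155.2-fold higher at BFRTV8d than at BFRTV0d. Within epithelial-like cells ELF5 was 214.4-fold higher (73.3 to 1040) in that comparison, on 3 UMIs at BFRTV0d. PIM1, a survival kinase, stood at 19.3, 13.0 and 93.1 CPM at the 3 times, and within epithelial-like cells it was 2.06-fold higher (1.91 to 2.23) at BFRTV8d than at BFRTV0d. In CiMECs against BFRTV8d 10 of 15 were called lower and 2 higher, against 45.1% and 9.16% of all genes, with LTF at least 370.1-fold lower and CSN3 at least 175.0-fold lower, as PRLR was. In GMECs CSN3 had no entry, ELF5 stood at 0.263 CPM and LTF at 0.319 CPM, so these targets, like PRLR, were near or under the floor in the cultured natural mammary cells. The targets CSN1S1, CSN1S2, CSN2, LALBA, PAEP, WAP, BTN1A1 and GLYCAM1 had no entry and were not analysed here.

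Genes known to respond to oestrogen receptor alpha were more often called higher than lower during induction, while ESR1 itself stayed under 1 CPM. Of the 13 compared, 7 were called higher and 3 lower at BFRTV4d against BFRTV0d, and 8 were called higher and 2 lower at BFRTV8d against BFRTV0d, with a median log2 fold of 2.11 beside −0.21. The shares of all genes were again 17.2% higher and 22.9% lower, and 22.1% higher and 26.9% lower. TFF3, a secreted trefoil peptide, was 580.4-fold higher (386.6 to 916.0) at BFRTV8d than at BFRTV0d, and STC2, a secreted glycoprotein, 15.5-fold higher (14.0 to 17.3). Within epithelial-like cells TFF3 was 124.1-fold higher (75.2 to 221.9) and STC2 6.15-fold higher (5.17 to 7.37). Of 14 compared in CiMECs against BFRTV8d, 8 (57.1%) were called lower and 2 higher, against 45.1% and 9.16% of all genes. CXCL12 was at least 988.6-fold lower there, but epithelial-like cells held 6.45% of its BFRTV8d UMIs and the unnamed collagen-led cells 93.5%. Of 15 partner factors, 6 were called higher and 3 lower at BFRTV8d against BFRTV0d, against the same 22.1% and 26.9%. FOXA1, which opens chromatin for ESR1, was 53.9-fold higher (44.2 to 66.6), and GATA3, a luminal factor, 47.3-fold higher (43.4 to 51.6). Within epithelial-like cells FOXA1 was 13.7-fold higher (10.5 to 18.2) and GATA3 6.77-fold higher (6.22 to 7.39). In CiMECs against BFRTV8d 14 of the 15 partner factors were called lower and 1 higher, with TFAP2C at least 318.9-fold lower and GATA3 21.5-fold lower (20.0 to 23.1). The lists share genes such as IGF1, SOCS2, SOCS3, CISH and AREG. Some of the genes, such as KRT19, are also general epithelial genes, and epithelial-like cells made up 94.9% of BFRTV8d and 7.66% of BFRTV0d. The part of ESR1, PRLR or STAT5B in these differences was not tested.

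Profiles over the 5 tables were compared among 10707 genes with an entry in all tables and at least 5 CPM in 1 or more. The genes closest to each member were found by the Euclidean distance of centred log2 CPM. For PRLR, with 3 of its 5 tables at the floor, they were FBP2 (distance 1.71), ENTPD3 (1.80), LPAR6 (1.86), PLIN2 (1.88) and LOC102179515 (2.00). For STAT5B they were IGHMBP2 (0.13), SNX19 (0.15), KPNA1 (0.17), CLPTM1L (0.18) and EMC1 (0.18). For ESR1, with 1 table at the floor, they were SREBF2 (0.44), HMGN1 (0.46), PIK3C2B (0.48), MYH10 (0.51) and SLC16A1 (0.54). STAT5B thus had close neighbours in profile. The larger distances of PRLR cannot be set against these, since 3 of its values were set at the floor. Genes missing from some tables, as PRLR is, were not among the candidates. Within the epithelial-like cells of BFRTV4d, the ratio of cells with PRLR to cells without it was 0.456 (0.371 to 0.555) for FBP2, 0.875 (0.822 to 0.930) for LPAR6, 1.26 (1.11 to 1.41) for ENTPD3 and 1.21 (1.16 to 1.26) for PLIN2. The likeness over tables was thus matched between cells for some of these genes and not for others.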

How the data were processed

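Single-cell libraries of 11 labelled samples in 5 groups were analysed. The authors deposited 1 table of whole-number UMI counts per group, not normalized, with genes in few cells left out. FastQC 0.10.1 and Cell Ranger are named in the submitters' processing notes. The genome build is not given in the sources used here. No coordinates or sequences are therefore printed, and the protein and promoter comparison that had been planned was not run. RefSeq (ARS1.2) served for names and gene order only and matched 16296 of 16677 symbols and 3 of the 4 members.

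The members and all gene lists were chosen with earlier results of these data known. Counts were summed per table and divided by the UMIs outside ribosomal protein genes (72291250 to 117500853). Folds carry conditional binomial intervals, levels Poisson intervals and shares Clopper-Pearson intervals, at 95%. TMM factors came from edgeR 4.0.16 and median-of-ratios factors from DESeq2 1.42.0, and neither tool was used for a test. Barcodes with at least 2000 UMIs were clustered per table on 2000 variable genes, without the members and ribosomal protein genes, with 30 components, 15 neighbours and Leiden resolution 0.5 (scanpy 1.11.5). A cluster took a class name where 1 marker sum was at least 3 times the other, unless markers of another class led it. Doublets were not called. The genes named are the members, up to 4 genes per list with the largest fold, genes of a list with no entry, the 5 nearest genes in profile and leading genes of clusters. The fold script was tested on simulated data. Alternatives changed the scaling, denominator, barcodes, summing, call, minimum, floor, thinning depth and clustering. Some genes of the lists are counted but not reported here by name.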

Additional observations from a re-analysis of the deposited data

How the results depend on the processing

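No paired analysis was possible because the cells carry no sample, and for the same reason no replicate could be left out. Every direction of PRLR held under all alternatives, and no called direction reversed. The number of members called changed in these cases: with a minimum of 10 CPM it was 0 in place of 1 at BFRTV4d against BFRTV0d, at 4-fold it was 1 (PRLR) in place of 2 at BFRTV8d against BFRTV0d, without a minimum it was 2 in place of 1 in CiMECs against BFRTV8d and 1 in place of 0 in CiMECs against GMECs (ESR1 in both), and in CPM of all UMIs it was 1 (STAT5B) in place of 0 in GMECs against BFRTV0d. At 4-fold the calls over all genes were 1691, 2789, 728, 2748, 926 and 2554 in place of 4914, 6088, 2433, 6472, 3671 and 5491 for BFRTV4d and BFRTV8d against BFRTV0d, BFRTV8d against BFRTV4d, CiMECs against BFRTV8d, CiMECs against GMECs and GMECs against BFRTV0d. A minimum of 10 CPM left 1504 calls at BFRTV8d against BFRTV4d and 2293 in CiMECs against GMECs. The cause was the alternatives' own construction, a stricter or looser filter or another denominator. Thinned to 1500 UMIs, PRLR was found in 1.69% of the cells at BFRTV8d and 0.951% at BFRTV4d, and STAT5B in 2.07%, 1.31%, 0.946%, 0.709% and 0.966% of the cells in BFRTV0d, BFRTV4d, BFRTV8d, CiMECs and GMECs. Unthinned shares were 10.5% and 5.69% for PRLR and 14.9%, 9.02%, 5.71%, 7.31% and 12.3% for STAT5B, so shares at different depths are not levels. Without the 5% of barcodes with most UMIs, 87.3% of the PRLR UMIs at BFRTV4d lay in epithelial-like cells, and the highest PRLR level of a cluster at BFRTV8d was 30.3 CPM. At Leiden resolution 1 the highest PRLR levels were 33.3 CPM at BFRTV8d and 30.6 CPM at BFRTV4d, and CXCL14 and STMN2 were among the leading genes each time. The class folds of PRLR, STAT5B and ESR1 stayed within their intervals under both of these alternatives, but at resolution 1 the STAT5B ratio of epithelial-like CiMECs to BFRTV8d was 1.06 (0.919 to 1.22), an interval that holds 1. ESR1 counts are too low for any of these comparisons to set its level apart between tables. With 1 library per group, library, table format and condition cannot be told apart.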
